A study of Mus musculus with 4 samples.

Results

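Transcripts of 48 ribosome biogenesis and nucleolar genes were followed in colon epithelial cells of mice lacking the Polycomb proteins Bmi1, Mel18 (gene symbol Pcgf2) or both. The genes were taken by symbol from the platform's probe annotation, in which 45 of the 48 had a probe set that names that gene alone. Npm3 and Noc2l were not listed there, and Ppan appeared only in a probe set shared with another gene, so these 3 are not analysed here. All 45 reached the floor of 6 on the log2 scale on the highest array, as did 12526 of 19938 named genes in all. Their means over the 4 arrays reached it too, and 44 did so on every array, Rrs1 on DKO (5.94) being the exception.

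EDTA was used to free the cells from colons of sex-matched C57BL/6 mice aged 6 to 8 weeks. Every group, the controls included, had received azoxymethane (10 mg/kg), a colon carcinogen, and 5 days later dextran sulfate sodium (3.5% in drinking water for 5 days), which injures the colonic lining, and cells were taken on day 12. There was 1 Affymetrix Mouse Gene 1.0 ST array for each genotype: WT, Bmi1ΔIEC, Mel18ΔIEC and DKO (Bmi1ΔIEC Mel18ΔIEC). The labels place the deletions in intestinal epithelial cells but the sources used here name neither the driver of the deletion nor the number of mice behind an array. With 1 array for each genotype no difference has a replicate check, so genes at least 1.5-fold apart are counted as called and set beside the share of all 12526 genes called in the same way.

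A ribosome begins in the nucleolus, where RNA polymerase I makes a long precursor RNA that small nucleolar ribonucleoproteins (snoRNPs) modify and fold. A large assembly, the small subunit processome, shapes the part that becomes the small subunit, while other factors build the large subunit, and late factors finish both. The transcription factor MYC is known to raise many of these genes, and dividing crypt cells of the colon make ribosomes at a high rate, whereas mature cells at the surface make fewer.

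MYC with its partner MAX binds the letters CACGTG, which read the same on both strands, so promoters were searched for them. Of the 45 genes 38 had a promoter of 300 bases (250 before to 50 after the start of the gene) in the RefSeq table of build GRCm38.p6, and 10 of these 38 (26.3%) held the letters. The share was 11.4% of the 9988 measured genes that have a promoter there, and 8.09% of all 27025 genes listed. The promoters of the 5 members with the letters that read lowest on DKO against WT are given here, with Ddx10, the member without them that differed least. CACGTG is in capitals, sequences run 5′ to 3′ on the strand of the gene, and a match describes letters only.

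Grwd1 (chr7:45830740-45831039, minus strand) and Mybbp1a (chr11:72441077-72441376, plus strand) encode a histone chaperone of the nucleolus and a nucleolar MYB-binding protein. Utp20 (chr10:88826765-88827064, minus strand) encodes a processome subunit, and Pes1 (chr11:3963725-3964024, plus strand) and Nop2 (chr6:125131633-125131932, plus strand) encode large subunit assembly factors. Ddx10 (chr9:53248063-53248362, minus strand) encodes an RNA helicase. The letters begin 34 bases after the start of the gene in Grwd1, 40 in Mybbp1a, 37 in Utp20 and 2 in Pes1, and 60 bases before it in Nop2.
Grwd1: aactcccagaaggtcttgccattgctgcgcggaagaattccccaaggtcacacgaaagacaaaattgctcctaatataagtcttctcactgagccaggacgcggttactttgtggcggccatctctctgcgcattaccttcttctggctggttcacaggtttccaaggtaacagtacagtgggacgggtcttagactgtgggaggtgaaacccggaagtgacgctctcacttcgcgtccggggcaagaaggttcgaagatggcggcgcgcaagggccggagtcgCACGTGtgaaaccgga
Mybbp1a: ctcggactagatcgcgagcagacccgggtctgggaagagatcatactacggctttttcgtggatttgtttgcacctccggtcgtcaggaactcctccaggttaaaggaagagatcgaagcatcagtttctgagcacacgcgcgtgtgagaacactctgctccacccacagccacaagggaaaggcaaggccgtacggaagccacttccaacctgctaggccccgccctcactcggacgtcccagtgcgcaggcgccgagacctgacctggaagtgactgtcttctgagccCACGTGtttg
Utp20: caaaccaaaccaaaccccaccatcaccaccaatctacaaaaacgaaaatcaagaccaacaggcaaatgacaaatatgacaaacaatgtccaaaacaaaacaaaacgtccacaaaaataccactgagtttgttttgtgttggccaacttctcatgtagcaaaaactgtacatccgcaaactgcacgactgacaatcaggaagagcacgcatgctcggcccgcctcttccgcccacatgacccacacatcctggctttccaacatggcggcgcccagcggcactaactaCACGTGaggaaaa
Pes1: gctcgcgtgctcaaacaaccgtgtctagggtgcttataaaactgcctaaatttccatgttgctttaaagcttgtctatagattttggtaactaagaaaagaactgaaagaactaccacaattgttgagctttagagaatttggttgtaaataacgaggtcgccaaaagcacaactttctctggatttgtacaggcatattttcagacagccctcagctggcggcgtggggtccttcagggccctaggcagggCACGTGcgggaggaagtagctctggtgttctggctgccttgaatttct
Nop2: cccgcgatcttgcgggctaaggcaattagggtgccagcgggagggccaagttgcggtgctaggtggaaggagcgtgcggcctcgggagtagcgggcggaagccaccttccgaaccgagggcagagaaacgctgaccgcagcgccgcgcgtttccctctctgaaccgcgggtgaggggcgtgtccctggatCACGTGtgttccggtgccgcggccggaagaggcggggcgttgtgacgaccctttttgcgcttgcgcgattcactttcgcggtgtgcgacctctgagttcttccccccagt
Ddx10: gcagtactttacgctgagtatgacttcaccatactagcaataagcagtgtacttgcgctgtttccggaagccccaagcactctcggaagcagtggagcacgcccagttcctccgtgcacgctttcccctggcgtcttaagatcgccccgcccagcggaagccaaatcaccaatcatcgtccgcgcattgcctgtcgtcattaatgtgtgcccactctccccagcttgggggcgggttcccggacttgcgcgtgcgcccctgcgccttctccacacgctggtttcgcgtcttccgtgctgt

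The 10 members with CACGTG had log2 differences of DKO from WT between -1.83 and -0.86, with a median of -1.37. The 28 without it lay between -1.73 and -0.18, with a median of -1.23. The ranges overlapped for most of their length. Over all measured genes the medians were -0.10 with the letters and -0.06 without them. All 10 members with the letters were lower on DKO by at least 1.5-fold, and so were all of the 28 without them except Gar1 and Ddx10. Of all 12526 genes, with or without the letters, 20.2% were.

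On the array lacking both genes, nearly all members read lower than on WT. Of the 45, 42 were lower on DKO by 1.5-fold or more and 0 were higher by as much, where 20.2% of all genes were lower and 14.3% higher. At least 2-fold lower were 37, against 8.19% of all genes. The median difference was -1.25 (2.38-fold lower) with a range from -1.92 to -0.18, and the median over all genes was -0.05. If all 4 arrays are equally noisy, a difference of 2 arrays has an error scale of at most 0.407 for a typical gene. It comes from the scaled median absolute deviation of the contrasts among the 4 arrays. By that scale 2 members, Npm1 and Ddx10, differed by less. The differences of DKO from WT over all genes spread more widely, with a scaled median absolute deviation of 0.571. Gar1 (-0.55) also lay inside that spread. In a bulk isolate, fewer cells of a type and less RNA per cell cannot be told apart.

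**Figure D1:**
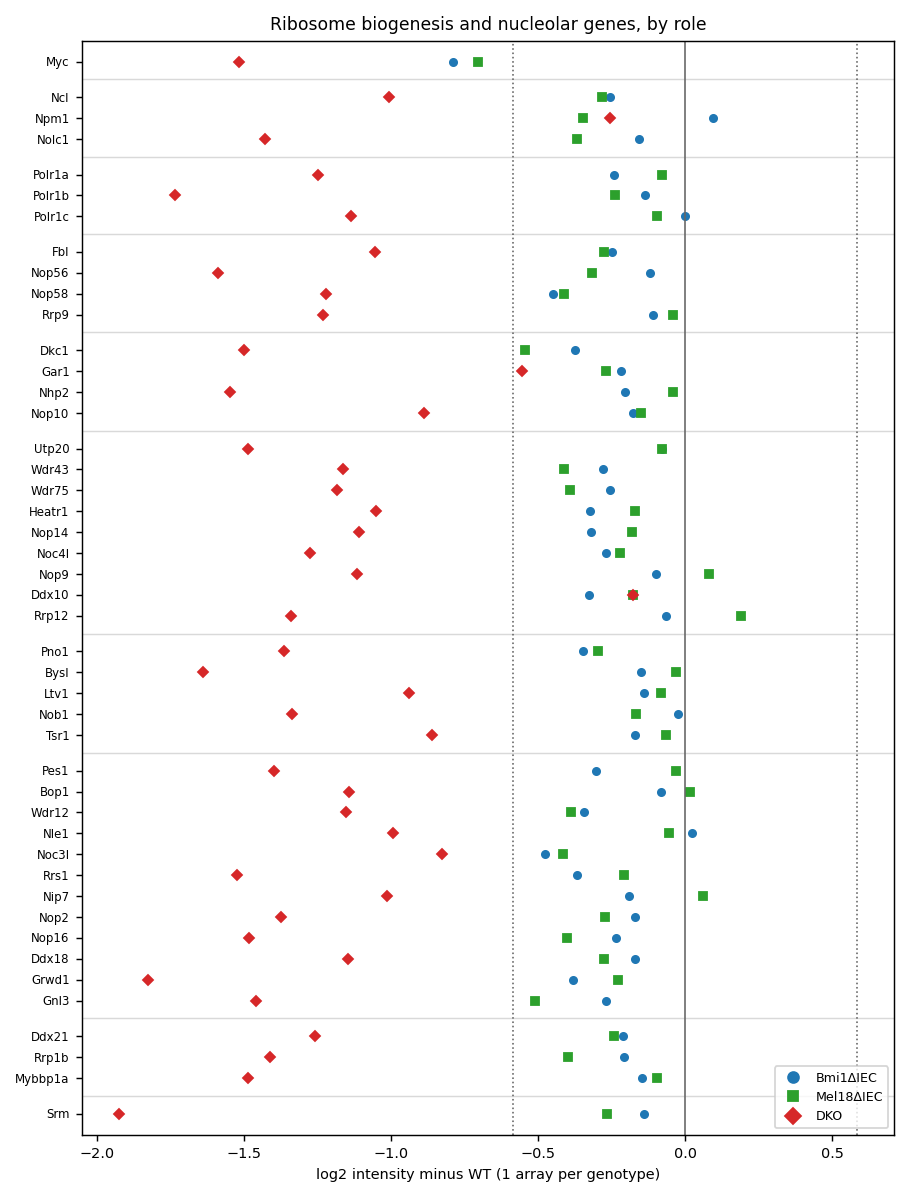
Log2 intensity of each of the 45 members minus its WT value (x axis), grouped by role (y axis), with 1 point for each of the arrays Bmi1ΔIEC, Mel18ΔIEC and DKO and dotted lines at 1.5-fold. DKO lies left of the 1.5-fold line for 42 members, while only Myc passes that line on Bmi1ΔIEC or Mel18ΔIEC.

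The WT array also carried transcripts of the seminal vesicle: 8 of 8 listed genes were at least 1.5-fold lower on each other array, and their summed intensity was 14248 on WT against 145 to 349 elsewhere. Bmi1 read 7.25 on WT, 7.43 on Bmi1ΔIEC, 6.999 on Mel18ΔIEC and 7.64 on DKO, and Pcgf2 lay between 6.72 and 6.96. The sources used here do not say which exons were removed, so neither gene checks the labels. DKO is therefore also set against the mean of Bmi1ΔIEC and Mel18ΔIEC, which leaves out the WT array but shares DKO with the first comparison. There 41 of 45 members were at least 1.5-fold lower and 0 higher, beside 18.8% and 14% of all genes, with a median of -1.04 (2.06-fold lower). By 2-fold, 26 members were lower, beside 6.51% of all genes. Gar1, Npm1, Ddx10 and Noc3l were the 4 members not called.

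**Figure D2:**
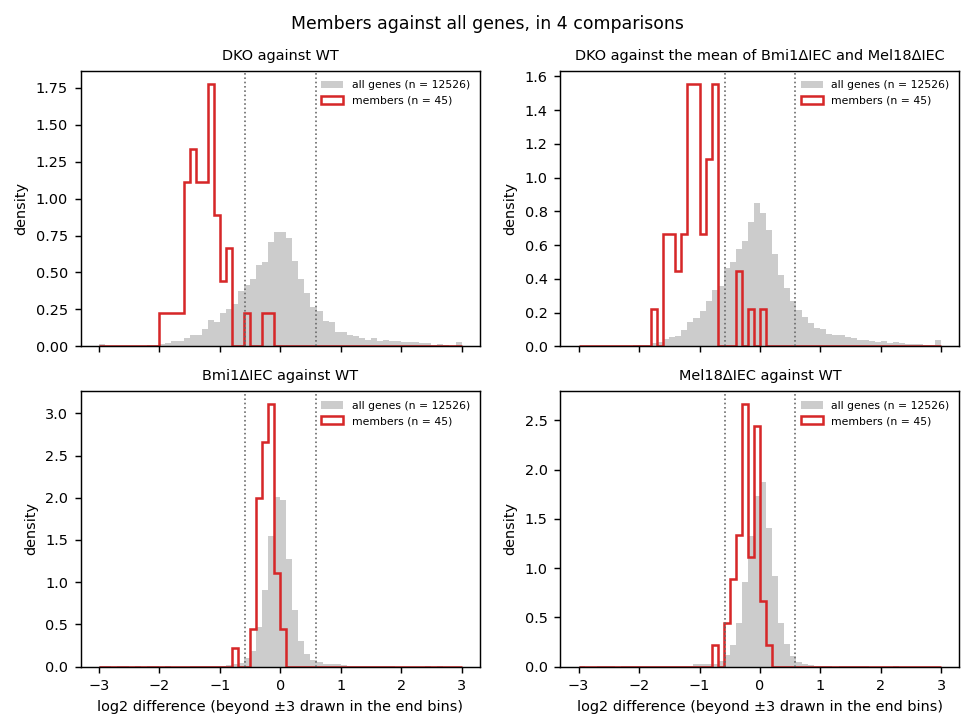
Density of log2 differences over all 12526 genes (grey) and the 45 members (red line) in 4 comparisons, with dotted lines at 1.5-fold; values beyond 3 are drawn in the end bins. The members sit to the left of the bulk of genes in both DKO panels, with medians of -1.25 and -1.04, and slightly left of it in the panels of Bmi1ΔIEC (-0.21) and Mel18ΔIEC (-0.23).

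Myc, the regulator itself, had a log2 intensity of 9.92 on WT, 9.13 on Bmi1ΔIEC, 9.22 on Mel18ΔIEC and 8.40 on DKO. It was thus highest on WT, between on both arrays with 1 deletion and lowest on DKO, where it was 2.86-fold lower than on WT. It was the only member at least 1.5-fold lower on Bmi1ΔIEC (-0.79) and on Mel18ΔIEC (-0.70). The sum of those 2 differences, -1.49, was close to the -1.52 on DKO.

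Nucleolar scaffolds and chaperones were split. Nucleolin, Ncl, a binder of precursor RNA, read 11.23 on WT, 10.97 on Bmi1ΔIEC, 10.94 on Mel18ΔIEC and 10.22 on DKO. Nolc1, a chaperone of snoRNPs, read 9.15, 8.99, 8.78 and 7.72 on the same arrays in that order. Both were lower on DKO by 2-fold or more, and each lay under all other arrays there. The histone chaperone nucleophosmin, Npm1, stayed apart from them: it read 10.76 on WT, 10.86 on Bmi1ΔIEC, 10.42 on Mel18ΔIEC and 10.51 on DKO. Its lowest array was Mel18ΔIEC, and its difference of DKO from WT, -0.26, was within the error scale.

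All 3 subunits of RNA polymerase I were called on DKO. Polr1b, the second-largest subunit, read 9.54 on WT, 9.40 on Bmi1ΔIEC, 9.30 on Mel18ΔIEC and 7.80 on DKO. Its value on DKO was 30.1% of that on WT by intensity, while on Bmi1ΔIEC and Mel18ΔIEC it was 90.9% and 84.6%. For the largest subunit, Polr1a, DKO differed from WT by -1.25, and for Polr1c, which RNA polymerase III also uses, by -1.14. On Bmi1ΔIEC and Mel18ΔIEC the largest difference of these subunits from WT was -0.24.

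The box C/D snoRNPs guide methylation of ribosomal RNA, and 4 of 4 members were lower on DKO. The core protein Nop56 read 10.43 on WT, 10.31 on Bmi1ΔIEC, 10.11 on Mel18ΔIEC and 8.84 on DKO, a difference of -1.59. Its partner Nop58 read 8.95, 8.50, 8.54 and 7.73 in that order (-1.22). Nop58 was thus lower than Nop56 was, relative to WT, on both arrays with 1 deletion (-0.45 and -0.41 against -0.12 and -0.32) and less low on DKO. The methyltransferase fibrillarin, Fbl, gave -1.06, and Rrp9, a protein of the U3 particle, gave -1.23. Fbl has another probe set in the annotation, which gave -1.42.

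The box H/ACA snoRNPs guide conversion of uridine to pseudouridine, and 3 of 4 members were called. The pseudouridine synthase dyskerin, Dkc1, read 9.09 on WT, 8.71 on Bmi1ΔIEC, 8.54 on Mel18ΔIEC and 7.59 on DKO. For Nhp2 the values were 9.26, 9.06, 9.22 and 7.71, so that it was close to WT on Mel18ΔIEC and 2.92-fold lower on DKO. The small subunit Nop10 differed by -0.89 on DKO. Gar1 read 9.61, 9.39, 9.34 and 9.05, and its difference of -0.55 narrowly missed the 1.5-fold line. The differences of these 4 genes were unequal, but each rests on 1 probe set and 1 array for each genotype.

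In the small subunit processome 8 of 9 members were called on DKO. Utp20, a large scaffold protein, read 8.84 on WT, 8.76 on Bmi1ΔIEC, 8.76 on Mel18ΔIEC and 7.35 on DKO. Rrp12, an export and processing factor, read 7.75, 7.68, 7.93 and 6.41. Both were near WT on the arrays with 1 deletion, and Rrp12 was highest on Mel18ΔIEC. The scaffold proteins Heatr1 (-1.05), Wdr43 (-1.16) and Wdr75 (-1.19) and the partners Nop14 (-1.11) and Noc4l (-1.28) lay close together on DKO, as did the RNA-binding protein Nop9 (-1.12). The helicase Ddx10 was the exception, with 8.39 on WT, 8.06 on Bmi1ΔIEC, 8.21 on Mel18ΔIEC and 8.21 on DKO. Its lowest array was Bmi1ΔIEC, and it was the only member that did not read lower on DKO than the mean of Bmi1ΔIEC and Mel18ΔIEC (0.07).

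Late assembly of the small subunit gave 5 of 5 called members. Bysl, a factor of the maturing particle, read 8.23 on WT, 8.08 on Bmi1ΔIEC, 8.19 on Mel18ΔIEC and 6.59 on DKO, which made it 3.11-fold lower on DKO. Nob1, the nuclease that makes the last cut of the small subunit RNA, read 9.01, 8.98, 8.84 and 7.67. Its partner Pno1 gave -1.36, and the export factor Ltv1 and the GTPase-like protein Tsr1 gave -0.94 and -0.86. Only on DKO did any of these 5 pass the 1.5-fold line.

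All 12 large subunit assembly genes measured were called lower on DKO against WT. Grwd1 had the largest difference of them, with 8.04 on WT, 7.66 on Bmi1ΔIEC, 7.81 on Mel18ΔIEC and 6.21 on DKO (3.55-fold lower). Rrs1, which helps bring the small 5S RNA into the particle, read 7.47, 7.10, 7.26 and 5.94. The members of one known complex, Pes1 (-1.40), Bop1 (-1.14) and Wdr12 (-1.15), differed by similar amounts. The methyltransferase Nop2 (-1.37), the assembly factors Nop16 (-1.48), Nip7 (-1.01) and Nle1 (-0.99), the GTP-binding protein nucleostemin, Gnl3 (-1.46), and the helicase Ddx18 (-1.15) fell in the same range. Other probe sets named Wdr12 and Ddx18 gave -1.22 and -1.08. Noc3l was the least different, with 8.47 on WT, 7.99 on Bmi1ΔIEC, 8.05 on Mel18ΔIEC and 7.64 on DKO. It missed the 1.5-fold line against the mean of Bmi1ΔIEC and Mel18ΔIEC (-0.38), and those arrays differed from WT by -0.48 and -0.42.

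The remaining nucleolar proteins were called as well. The helicase Ddx21 read 10.16 on WT, 9.95 on Bmi1ΔIEC, 9.92 on Mel18ΔIEC and 8.90 on DKO. Rrp1b gave -1.41 and Mybbp1a gave -1.49. The largest difference of all members was that of Srm, spermidine synthase, an enzyme of polyamine synthesis known as a MYC target. Srm read 10.68 on WT, 10.53 on Bmi1ΔIEC, 10.41 on Mel18ΔIEC and 8.75 on DKO, so its intensity on DKO was 26.4% of that on WT.

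With 1 gene deleted, the members lay slightly below WT. On Bmi1ΔIEC 43 of 45 read lower than on WT, where 53.6% of all genes did, and the median difference was -0.21 beside -0.02 for all genes. On Mel18ΔIEC 41 read lower, beside 49.1%, with a median of -0.23. By the 1.5-fold rule, 1 member was lower on each array, Myc both times, and 0 were higher. All genes gave 1.53% lower and 2.02% higher on Bmi1ΔIEC, and 2.35% and 1.19% on Mel18ΔIEC. These comparisons share the WT array, which carried the seminal vesicle transcripts, and its part in the small common difference was not tested. Within the error scale of at most 0.407, which takes the arrays as equally noisy, lay 42 members on Bmi1ΔIEC and 39 on Mel18ΔIEC. The spread of these differences over all genes was smaller, with scaled median absolute deviations of 0.191 and 0.217. On each array 24 of 45 members lay outside it. Many genes lie outside such a spread by its definition, and their share among all genes was not counted.

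Between Bmi1ΔIEC and Mel18ΔIEC the members were level. On Bmi1ΔIEC 23 read lower than on Mel18ΔIEC and 22 higher, with 0 called in either direction, beside 1.24% of all genes lower and 3.26% higher. The median difference was -0.03. Npm1 had the largest one, at 0.44. The sign of the median depended on the scaling: it was -0.15 with each array centred on its median and 0.15 with arrays centred on epithelial markers.

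Order across the arrays was alike for most members. DKO was the lowest array for 43 of 45, where 46% of all genes were lowest there, and WT was the highest for 39, where 23.2% of all genes were highest there. Both held for 38 members, beside 18.2% of all genes. The other 2 lowest readings were those of Npm1 on Mel18ΔIEC and of Ddx10 on Bmi1ΔIEC.

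The departure from additivity (DKO minus Bmi1ΔIEC minus Mel18ΔIEC plus WT) asks whether DKO differed by more than both single deletions added together. It was at least 1.5-fold below 0 for 31 of 45 members and above it for 0, beside 19.1% and 15.4% of all genes, with a median of -0.81 and -0.08 over all genes. This value uses all 4 arrays, WT with its seminal vesicle transcripts included. Its error scale, at most 0.576 if the arrays are equally noisy, is close to the 1.5-fold line, so calls just past that line are rough. Srm (-1.52), Rrp12 (-1.46), Bysl (-1.45), Polr1b (-1.36) and Utp20 (-1.33) departed furthest. Myc (-0.02), Gar1 (-0.07) and Noc3l (0.07) were near 0, and Ddx10 was above it (0.33). Late small subunit factors were called in 5 of 5 cases and RNA polymerase I subunits in 3 of 3, while box H/ACA proteins were called in 1 of 4. With cyclic loess the count over all members was 25 and that of late small subunit factors 2 of 5, with Pno1, Ltv1 and Tsr1 short of the 1.5-fold line. Centring on array medians or on epithelial markers gave 3 of 4 box H/ACA proteins. The counts of late small subunit and box H/ACA genes thus depended on the scaling, unlike that of the 3 RNA polymerase I subunits. Of 9 RNA polymerase I genes outside the members, 2 were at least 1.5-fold below additivity and 1 above it. Processome genes ranged from 4 of 9 with cyclic loess to 8 of 9 with epithelial centring. Counts of large subunit, box C/D and scaffold genes also moved with the scaling. The departure was not particular to the members, as lists described below show. At 1.5-fold, 12 of 14 proliferation markers (median -1.04) and 10 of 15 purine and pyrimidine synthesis genes (median -0.97) were below additivity. Of 153 pathway genes outside the members, 63 were below it and 4 above it (median -0.49).

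**Figure D3:**
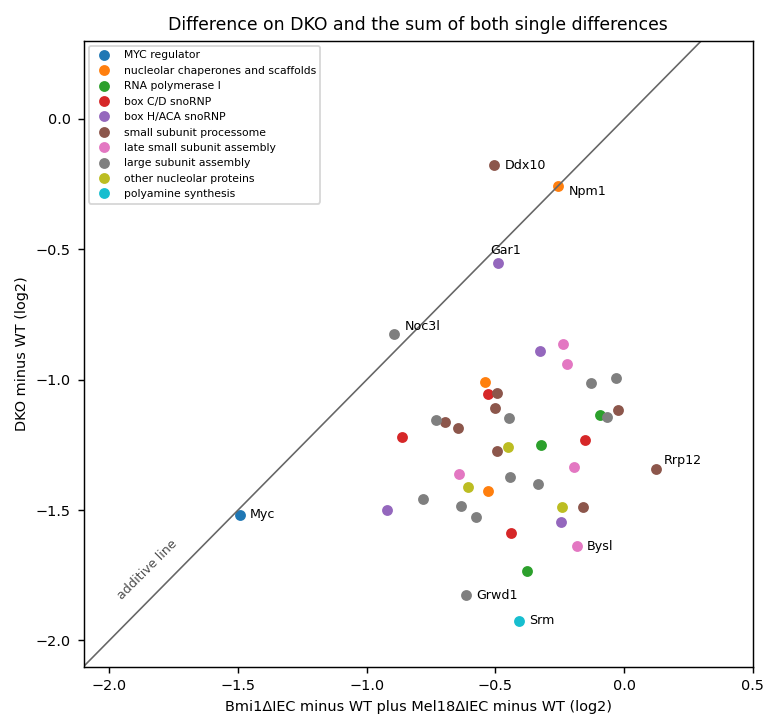
Log2 difference of DKO from WT (y axis) against the sum of the Bmi1ΔIEC and Mel18ΔIEC differences from WT (x axis) for 45 members, coloured by role; both axes use the WT array, and the line marks equal values. Myc, Npm1, Gar1 and Noc3l lie near the line, Ddx10 lies above it, and the other members lie below it.

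limma was fitted with a term for loss of Bmi1 and a term for loss of Mel18, which leaves 1 residual degree of freedom and averages each loss over 2 pairs of arrays. The median change over members was -0.62 with loss of Bmi1 and -0.61 with loss of Mel18, beside -0.05 and -0.02 over all genes. Both averages include the DKO array, so these medians in part restate the lower member values on DKO. By limma, 0 of 12526 genes (0%) had an adjusted p under 0.05 for either loss, members included. At an unadjusted p under 0.05 limma gave 324 and 138 of the 12526 genes, among them 1 and 3 of the 45 members. Myc was among them for both, with -0.80 ± 0.22 (SE) and -0.72 ± 0.22 and limma adjusted p-values of 0.849 and 0.952. The model counts the departure from additivity as error.

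Other genes of the pathway, from lists that share no gene with the members, were lower on DKO as well, with a smaller median. The lists were read on the same 4 arrays and chosen with earlier results of these data known, so they are no independent check. By the 1.5-fold rule 93 of 153 such genes over 9 lists were lower against WT and 5 were higher. The shares of all genes were 20.2% and 14.3%, and the median of the 153 was -0.79. Against the mean of Bmi1ΔIEC and Mel18ΔIEC the counts were 83 and 4, beside 18.8% and 14% of all genes. On Bmi1ΔIEC 0 and on Mel18ΔIEC 2 of the 153 were lower than on WT by as much, and 0 were higher. Other processome genes were lower in 25 of 36 cases (median -0.97), among them Tbl3 (-1.63), Rcl1 (-1.50), Mphosph10 (-1.44) and Nol6 (-1.42). Other large subunit genes were lower in 25 of 40 (median -0.76), led by Mrto4 (-1.96), which acts on the stalk of the large subunit, and by the helicase Ddx56 (-1.88), Wdr74 (-1.42) and Nifk (-1.41). Of 10 snoRNP assembly factors 9 were lower (median -1.14), including Naf1 (-1.65), Tcof1 (-1.39), the helicase Ruvbl1 (-1.26) and Znhit6 (-1.25). In none of these 3 lists was a gene at least 1.5-fold higher.

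RNA polymerase genes outside the members were less uniform. Of 9 further RNA polymerase I genes 3 were lower, Polr1e (-1.16), the initiation factor Rrn3 (-1.06) and Taf1d (-1.05), and the median was -0.35 with Polr1d at -0.54. RNA polymerase III genes were lower in 5 of 12 cases (median -0.57), with Polr3e (-1.005), Polr3d (-0.94), Polr3g (-0.87) and Polr3f (-0.82) furthest from WT. The RNA exosome, which trims and degrades precursor RNA, was lower in 9 of 11 cases (median -0.85), led by Exosc2 (-1.72), Exosc8 (-1.34), Exosc1 (-1.33) and Exosc7 (-1.31).

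Purine and pyrimidine synthesis genes, which supply the building blocks of RNA, were lower in 13 of 15 cases with a median of -1.25, the same as that of the members. Cad, the first enzyme of pyrimidine synthesis, read 8.88 on WT, 8.66 on Bmi1ΔIEC, 8.96 on Mel18ΔIEC and 7.16 on DKO (-1.71), followed by the purine enzymes Gart (-1.54) and Pfas (-1.49) and the nucleoside diphosphate kinase Nme1 (-1.50). Polyamine genes went in opposite directions, with 3 of 8 lower and 3 higher (median -0.04). The 3 lower genes were ornithine decarboxylase, Odc1 (-1.22), the hydroxylase Dohh (-1.23) and its substrate, the translation factor Eif5a (-1.23). Of the 3 higher genes the largest difference was that of Smox. Spermine oxidase, Smox, which breaks polyamines down, read 9.94 on WT, 10.01 on Bmi1ΔIEC, 10.10 on Mel18ΔIEC and 11.14 on DKO (1.20).

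In the MYC network 1 of 12 genes was lower and 2 were higher (median 0.16), beside 20.2% and 14.3% of all genes. The MYC antagonist Mxd1, a partner of MAX found in differentiated cells, read 11.12 on WT, 11.37 on Bmi1ΔIEC, 11.33 on Mel18ΔIEC and 12.20 on DKO. It was thus highest on the array where Myc was lowest, and a link between these genes was not tested. Mxd3, an antagonist linked to dividing cells, gave -0.69 and Mycl gave -0.49. The MYC relative Mycn gave 0.71 but read 5.77 on WT and 6.48 on DKO, near the floor, so that difference is rough.

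**Figure D4:**
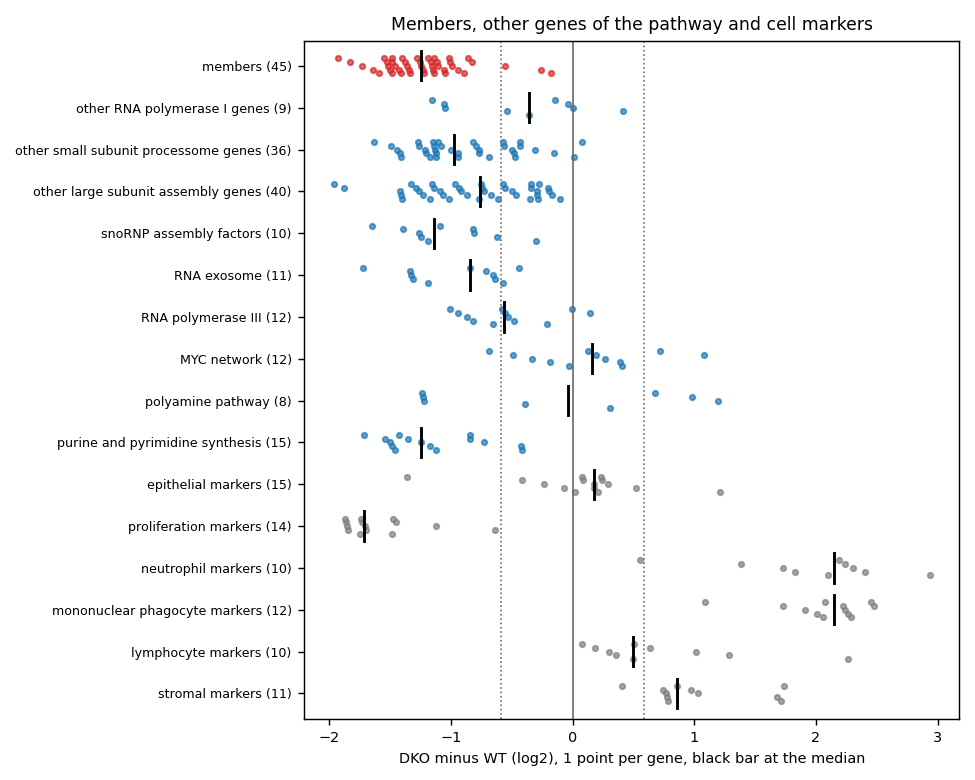
Log2 difference of DKO from WT for each gene (points) of the members (red), 9 other pathway lists (blue) and 6 cell marker lists (grey), with the median as a black bar, the number of genes in brackets and dotted lines at 1.5-fold. Purine and pyrimidine synthesis genes lie in the range of the members, the MYC network and polyamine lists spread to both sides of 0, and phagocyte and neutrophil markers lie far to the right.

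Markers of other cells and of cell division differed between the same arrays. Proliferation markers were lower on DKO than on WT in 14 of 14 cases (median -1.72). Their summed intensity was 18110 on WT, 14823 on Bmi1ΔIEC, 14895 on Mel18ΔIEC and 6730 on DKO. Against WT the medians of these markers were -0.31 on Bmi1ΔIEC and -0.27 on Mel18ΔIEC. All 15 epithelial markers reached the floor, with 1 lower and 1 higher on DKO, a median of 0.17 and sums of 55840 on WT and 61792 on DKO. Mononuclear phagocyte markers were higher on DKO in 12 of 12 cases and neutrophil markers in 9 of 10, each with a median of 2.15, stromal markers in 10 of 11 (median 0.86) and lymphocyte markers in 4 of 10 (median 0.50). The lymphocyte marker Cd3d and the stromal marker Lum were under the floor on all 4 arrays. Neutrophil markers summed to 5032 on WT, 11602 on Bmi1ΔIEC, 1933 on Mel18ΔIEC and 20671 on DKO. Their medians against WT were 1.10 on Bmi1ΔIEC and -1.002 on Mel18ΔIEC. Phagocyte markers summed to 4151, 5139, 2891 and 15123 in the same order of arrays, stromal markers to 3133, 4863, 2160 and 8246, and lymphocyte markers to 746 to 1286. The part of these cells, and of fewer dividing cells, in the lower member values on DKO was not tested. With each array centred on the epithelial markers, 45 of 45 members were called lower on DKO against WT and the median was -1.71. That centring used the median level of the markers, 11.64 on WT and 12.10 on DKO, whereas the median of their differences was 0.17. The level on DKO was that of Cldn4, the 1 marker called higher (1.21). That scaling also put 44.7% of all genes lower and 6.67% higher and moved their median to -0.52.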

How the data were processed

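Each of the 4 arrays measured total RNA (200 ng) of 1 genotype. The authors deposited linear intensities of probe sets. The submitters' processing notes name RMA and the Affymetrix Expression Console, without versions. RMA gives the probes of all arrays 1 distribution before it sums them into probe sets, so a difference shared by most genes is largely removed. The medians of the deposited probe sets still differed slightly between arrays. Intensities (4.70 to 13738 over 35556 probe sets, array medians 67.04 to 72.96) were converted to log2. Probe sets with 1 gene symbol (21789) were named from the platform annotation, and the brightest of a gene was used. A gene was kept if its highest array reached a floor of 6 (log2).

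Differences were called at 1.5-fold, with 2-fold beside it. Average changes were fitted with limma 3.58.1 (R 4.3.3, lmFit, eBayes, Benjamini-Hochberg over all genes, threshold 0.05). The procedure was tested on simulated arrays with equal noise and additive changes only. That test cannot show how the fit behaves where DKO departs from additivity. Other steps used Python 3.11.15, numpy 2.4.6 and pandas 2.3.3. The members, lists, comparisons and alternatives were chosen with earlier results of these data known. Named were all members, the deleted genes, and up to 4 genes of each other list with the largest difference of DKO from WT. Alternatives were other floors (none, 8, or 6 on the mean), cyclic loess, centring on array medians or epithelial markers, log2 of the intensity plus 32, averaging the probe sets of a gene, a 2-fold threshold and an eBayes trend. Depth does not apply to arrays, and their number limits the precision.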

Additional observations from a re-analysis of the deposited data

How the results depend on the processing

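No paired analysis was possible because each genotype has 1 array, and for the same reason no array could be left out of its group. Of the counts and medians recomputed under the alternatives, 9 moved and 165 stayed within 1.5 times the count or within 0.288 of the median. Without a floor, or with the floor of 6 on the mean, the same 45 members were measured. Their counts and medians could not move there, so part of the 165 was fixed in advance. Under the alternatives 0 called members turned direction. Among the members' medians only that of Bmi1ΔIEC against Mel18ΔIEC changed sign, from -0.03 to 0.01 with cyclic loess and 0.15 with epithelial centring. Centring on epithelial markers moved the median to -1.71 for DKO against WT and to -1.37 against the mean of Bmi1ΔIEC and Mel18ΔIEC. It called 11 members lower on Mel18ΔIEC than on WT, and 1 member higher on Bmi1ΔIEC than on Mel18ΔIEC. The median marker level used for it was 11.64 on WT and 11.86 on Mel18ΔIEC, whereas the median of the marker differences was 0.08. Cyclic loess called 2 members lower on Mel18ΔIEC than on WT. At 2-fold, 26 members were lower on DKO than on the mean of Bmi1ΔIEC and Mel18ΔIEC, 0 on Bmi1ΔIEC, 0 on Mel18ΔIEC, and 15 were below additivity.

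Over the alternatives other than the threshold, DKO against WT kept 38 to 45 members lower (38 with the floor of 8, which leaves 41 members), with medians from -1.71 to -1.08. Calls below additivity ranged from 25 (cyclic loess) to 39 (epithelial centring). The members' median minus that of all genes lay between -1.26 and -1.04. The limma count of called members was 0 under all 9 alternatives, with smallest adjusted p-values from 0.709 to 0.924 for loss of Bmi1 and from 0.527 to 0.979 for loss of Mel18. Dim genes such as Rrs1 on DKO are limited by signal over background.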

Other observations

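In the promoters of 9 of the 10 members that hold CACGTG, the letters begin after the start of the gene, between 2 and 40 bases into it. Of the 1131 other measured genes with these letters in the same 300-base window, 169 (14.9%) have them there. This pattern was noticed after the sequences were read, the members share no promoter, and the start is the one the RefSeq table gives.

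Relative to WT, Myc was the lowest of the 45 members on Bmi1ΔIEC, at 57.9% of its WT intensity, with Noc3l next at 71.8%. It was also the lowest on Mel18ΔIEC, at 61.4%, with Dkc1 next at 68.5%. On DKO, where Myc was at 34.9%, 7 members were lower, Srm the lowest at 26.4%. These ranks rest on 1 array for each genotype and were looked at after the values were seen.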
